A study of Homo sapiens with 16 samples.

Results

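Secreted and membrane-bound proteases of the extracellular matrix and their inhibitors were followed through RNA sequencing in 2 established cell lines of human non-small cell lung cancer, A549 and H2023. The set named 8 genes: the matrix metalloproteinases MMP2, MMP14 and MMP15, the ADAMTS proteases ADAMTS1 and ADAMTS14, and the tissue inhibitors TIMP1, TIMP2 and TIMP3. Genes were matched by symbol, and 7 of the 8 were found among 18227 genes, while ADAMTS1 was not analysed here. The genes were chosen on their values in these same libraries, namely the differences between libraries labelled knockout and wild type. Those differences are therefore given as a description with no test. Tests of these genes are kept for wild-type libraries, between cultures and between lines.

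Matrix metalloproteinases are zinc enzymes that are made as inactive precursors and cut collagens, laminins and other matrix proteins. MMP2 is a secreted gelatinase that acts on type IV collagen. Its precursor is activated at the cell surface by MMP14, a membrane-type metalloproteinase, with a molecule of TIMP2 holding the precursor in place, while an excess of TIMP2 inhibits the enzyme. ADAMTS proteases are secreted relatives with thrombospondin repeats. In lung carcinoma these systems are studied for their part in invasion through basement membrane.

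The study compared wild-type cells with cells in which ZC3H12A had been knocked out, in each line. ZC3H12A encodes Regnase-1, an RNase that destabilises certain mRNAs. Cells were harvested after 3 days in normal culture or after 7 days in a stem-cell-enriched culture, called oncosphere, so culture type and time change together. The 8 groups were A549 wild type in normal culture, A549 labelled knockout in normal culture, A549 wild type in oncosphere culture, A549 labelled knockout in oncosphere culture, and the same 4 for H2023, with 2 libraries each. A single clone per line stands behind the libraries labelled knockout, so the edit and any other property of that clone cannot be told apart. Nothing in the labels says that replicates are separate cultures, so p-values measure the spread between these libraries, which may be technical.

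Values are TPM, a transcript abundance scaled within each library, which correct for gene length and sum to nearly the same total in each library. TPM does not retain depth, which is unknown for single libraries. ZC3H12A mRNA was higher in libraries labelled knockout than in wild type in 3 of 4 comparisons, up to 94.61 TPM in H2023 oncospheres. In A549 normal culture it was lower, at 16.9 and 19.93 TPM in libraries labelled knockout against 30.72 and 34.88 TPM in wild type. TPM cannot show whether the gene was edited. The edit itself was not examined, and libraries are called by their labels. The mitochondrial share of TPM was 10.3% to 18.7% under normal culture and 19.5% to 25.6% in oncospheres. The 5 epithelial markers EPCAM, KRT8, KRT18, KRT19 and CDH1 together reached 1450 to 2520 TPM in A549 normal culture labelled knockout, 7420 to 7630 TPM in its wild type and 3420 to 10700 TPM in the other groups. The 3 measured fibroblast markers of 5 listed, PDGFRA, PDGFRB and LUM, together stayed between 0.23 and 4.01 TPM, and the endothelial marker PECAM1, the 1 measured of 4, between 0 and 2.76 TPM. The 2 leukocyte markers measured of 4, CD14 and CD68, summed to 31.3 to 226 TPM. The lung marker NAPSA lay between 1.02 and 6.03 TPM, and the other 3 lung markers listed were not analysed here.

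TIMP1 was the most abundant of the 7 in 16 of 16 libraries. It ranged from 145.77 to 623.42 TPM with a median of 215.5. TIMP2 ranged from 19.75 to 139.63 TPM, MMP2 from 3.03 to 263.48, MMP15 from 5.12 to 32.62 and MMP14 from 1.37 to 44.58. TIMP3 was at 0.28 TPM or below in all 8 A549 libraries and at 10.77 TPM or above in all 8 H2023 libraries. ADAMTS14 reached 1 TPM in 2 libraries only, both of A549 oncospheres labelled knockout.

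**Figure D1:**
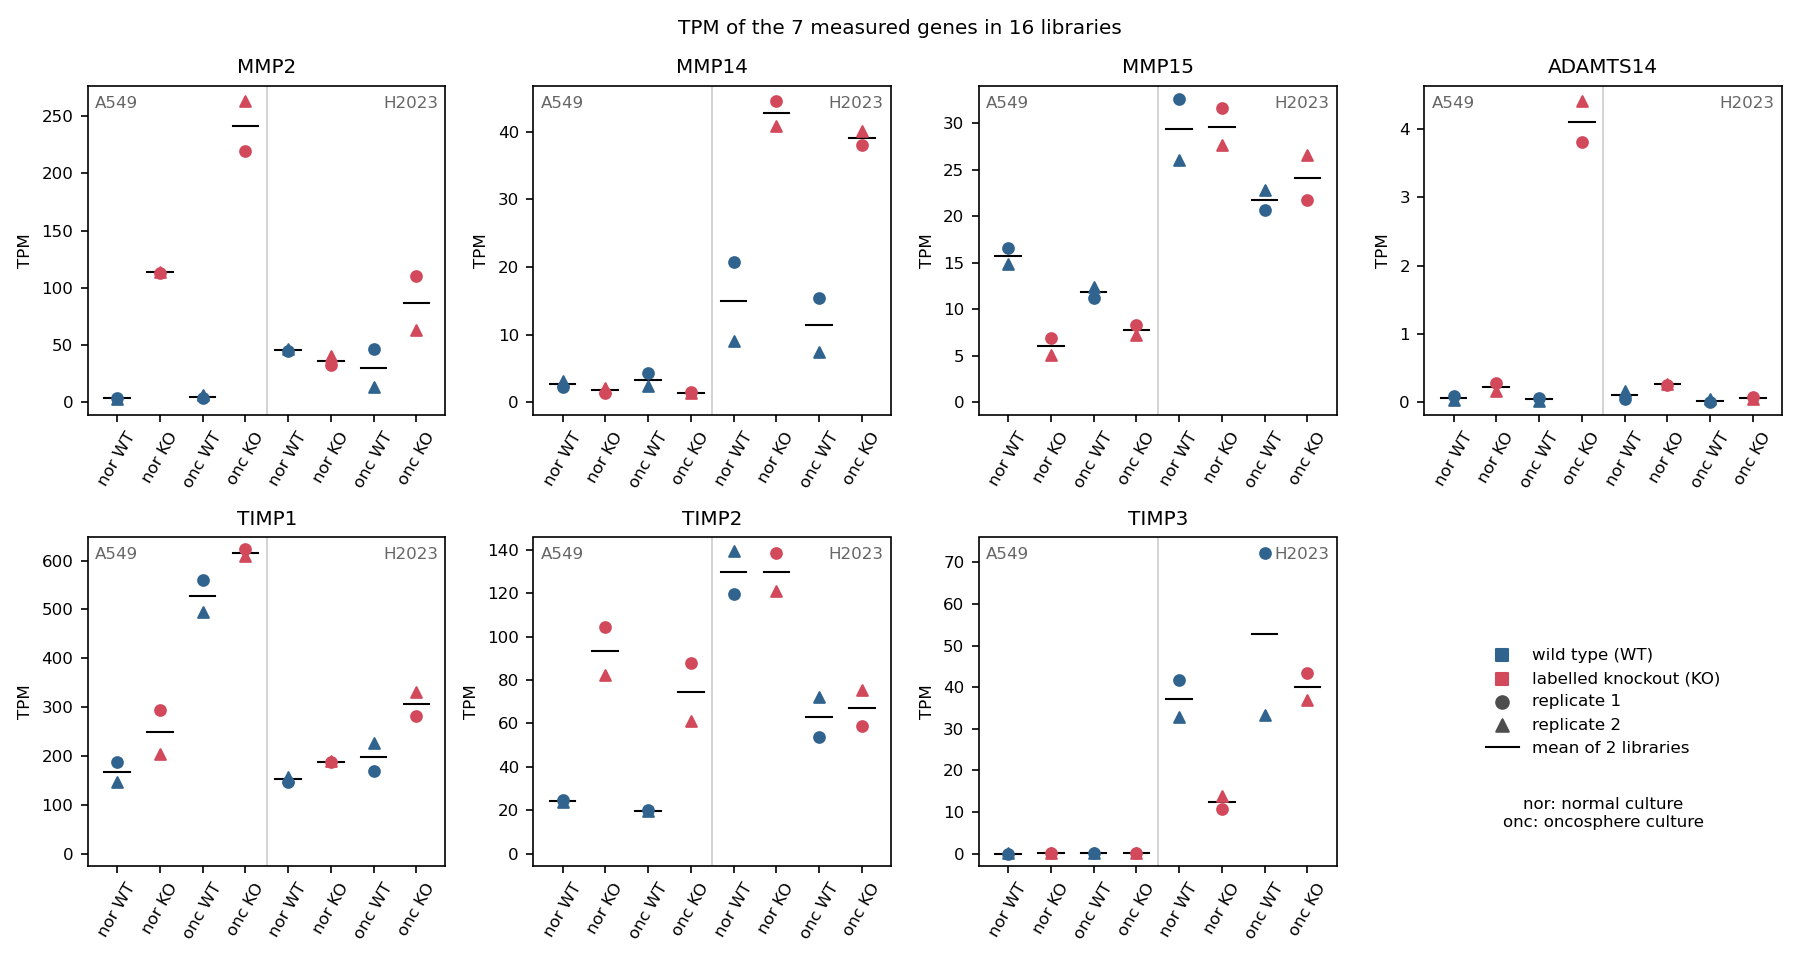
TPM (linear axis) of each measured gene in every library, by line, culture and genotype label; circles and triangles are replicates 1 and 2, and bars are means of the 2 libraries. MMP2 and TIMP2 stand higher in the A549 libraries labelled knockout, MMP14 in the H2023 libraries labelled knockout, and TIMP3 is near 0 throughout A549.

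Start regions were read where RefSeq holds them. RefSeq promoters, 250 bases before to 50 bases after the start in GRCh38.p14, were matched for 5 of the 7 genes, all but MMP2 and TIMP2. As examples, those of TIMP1, high everywhere, TIMP3, high in 1 line, and MMP14, which differed by genotype label within H2023, are shown 5′ to 3′ because they pair with 3 distinct expression patterns. Capitals mark GGGCGG on either strand (CCGCCC as printed), the letters of a GC box, which is a site type bound by Sp1.
TIMP1, chrX:47582186-47582485, + strand: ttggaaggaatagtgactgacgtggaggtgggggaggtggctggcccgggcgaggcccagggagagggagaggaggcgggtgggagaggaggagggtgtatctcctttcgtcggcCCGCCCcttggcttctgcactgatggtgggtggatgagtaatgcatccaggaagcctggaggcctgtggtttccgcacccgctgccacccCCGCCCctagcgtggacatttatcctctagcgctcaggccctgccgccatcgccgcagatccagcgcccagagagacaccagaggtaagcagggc
TIMP3, chr22:32801455-32801754, + strand: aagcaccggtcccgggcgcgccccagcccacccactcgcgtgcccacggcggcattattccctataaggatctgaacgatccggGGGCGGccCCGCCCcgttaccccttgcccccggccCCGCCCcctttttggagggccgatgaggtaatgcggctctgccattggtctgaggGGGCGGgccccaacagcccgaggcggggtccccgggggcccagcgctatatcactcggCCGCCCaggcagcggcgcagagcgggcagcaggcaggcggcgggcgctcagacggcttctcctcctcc
MMP14, chr14:22836335-22836634, + strand: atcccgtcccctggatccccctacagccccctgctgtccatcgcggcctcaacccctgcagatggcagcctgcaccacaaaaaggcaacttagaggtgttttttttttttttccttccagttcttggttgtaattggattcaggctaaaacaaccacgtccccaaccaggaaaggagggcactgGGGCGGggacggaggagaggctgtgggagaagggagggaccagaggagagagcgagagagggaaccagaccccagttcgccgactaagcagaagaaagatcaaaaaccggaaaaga
TIMP1 held 2 matches to GGGCGG, TIMP3 held 5 and MMP14 held 1, and 45.0% of 35116 RefSeq promoters hold at least 1. CG pairs numbered 16 in TIMP1, 31 in TIMP3 and 10 in MMP14, against a median of 14 over all promoters. MMP15 and ADAMTS14 had 39 and 42 CG pairs, more than 91.3% and 94.2% of promoters, and 5 matches to GGGCGG each, 2 of which overlap in ADAMTS14. None of the 5 windows held TGANTCA, the letters of an AP-1 site found in 7.71% of promoters, or TATAAA, found in 11.5%, on either strand. These are matches of letters and not sites shown to be used.

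The first question was how each gene differed between libraries labelled knockout and wild type. In A549, MMP2 and TIMP2 were higher in libraries labelled knockout in both cultures, and MMP15 was lower. MMP14 was low in A549 and lower in libraries labelled knockout, but its direction in normal culture is uncertain. ADAMTS14 was above 1 TPM only in the A549 oncosphere libraries labelled knockout. In H2023, MMP14 was higher in both cultures, and TIMP3 was lower in normal culture. TIMP1 was higher in all 4 comparisons, by 0.23 to 0.64 on the log2 scale. Differences are given as log2 fold changes of TPM + 1, labelled knockout minus wild type, with the standard error (SE) of a limma fit over 2 against 2 libraries. The scale understates the change of genes with low TPM.

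MMP2 lies at chr16:55389700-55506691 (+ strand). It was at 3.91 and 3.03 TPM in A549 wild type in normal culture and at 113.36 and 113.67 TPM in libraries labelled knockout, a log2 fold change of 4.69 (SE 0.14). In A549 oncospheres wild type held 3.23 and 6.01 TPM and the libraries labelled knockout held 219.76 and 263.48 TPM, a log2 fold change of 5.47 (SE 0.26). The groups did not overlap, and all 4 A549 libraries labelled knockout were above every other library in TPM. In bulk RNA, more cells with a transcript and more of it per cell cannot be told apart. In H2023 normal culture the order was the opposite, with 44.86 and 46.75 TPM in wild type and 32.09 and 40.38 TPM in libraries labelled knockout (log2 fold change -0.34, SE 0.14). Without replicate 1 of the latter it was -0.18. In H2023 oncospheres wild type held 46.1 and 13.23 TPM and the libraries labelled knockout held 110.28 and 63.22 TPM, a log2 fold change of 1.71 (SE 0.68). That value rested on the wild-type pair: it was 2.57 without replicate 1 and 0.84 without replicate 2. The A549 normal-culture group with 113.36 and 113.67 TPM of MMP2 is also the group with the lowest epithelial marker sum, and the part of that difference in the result was not tested. In A549 oncospheres the marker sums were 5230 to 6570 TPM in wild type and 4990 to 7190 TPM in libraries labelled knockout, and KRT8 and KRT18 make up nearly all of each sum. Of the others, EPCAM was at 9.4 and 7.94 TPM in wild type and at 0.82 and 1.03 TPM in libraries labelled knockout, KRT19 at 46.81 and 101.25 against 3.29 and 5.92 TPM, and CDH1 at 73.1 and 62.42 against 84.49 and 79.02 TPM. EPCAM and KRT19 were thus lower where MMP2 was higher, and their part in the result was not tested in oncospheres either.

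MMP14 lies at chr14:22836557-22849027 (+ strand). In A549 it was low: 2.29 and 3.08 TPM in normal wild type, 1.42 and 2.09 TPM in normal culture labelled knockout, 4.31 and 2.38 TPM in oncosphere wild type, and 1.44 and 1.37 TPM in oncospheres labelled knockout. The log2 fold changes were -0.42 (SE 0.23) and -0.82 (SE 0.27). They moved to -0.27 and -0.25 without wild-type replicate 2 or replicate 1 labelled knockout in normal culture, and to -0.49 without wild-type replicate 1 in oncospheres. The authors' deposited table gave -0.05 (SE 0.43) in normal culture and -1.57 (SE 0.4) in oncospheres. In H2023 the levels were 20.69 and 9.11 TPM in normal wild type and 44.58 and 40.84 TPM in libraries labelled knockout, a log2 fold change of 1.56 (SE 0.4). H2023 oncospheres gave 15.34 and 7.47 TPM in wild type and 37.98 and 40.12 TPM in libraries labelled knockout, a log2 fold change of 1.77 (SE 0.36). The libraries labelled knockout lay close together, and wild-type replicates differed by more than 2-fold in both cultures. Without wild-type replicate 2 the normal-culture value was 1.01.

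MMP15, a second membrane-type metalloproteinase, lies at chr16:58025566-58046901 (+ strand). In A549 normal culture it was at 16.61 and 14.9 TPM in wild type and at 6.87 and 5.12 TPM in libraries labelled knockout (log2 fold change -1.27, SE 0.19). In A549 oncospheres wild type held 11.18 and 12.43 TPM and libraries labelled knockout 8.31 and 7.22 TPM (log2 fold change -0.55, SE 0.17). The A549 groups did not overlap in either culture. In H2023 the groups overlapped in both, at 32.62 and 26.04 against 31.64 and 27.6 TPM in normal culture and at 20.62 and 22.77 against 21.76 and 26.53 TPM in oncospheres, with log2 fold changes of 0.02 (SE 0.15) and 0.14 (SE 0.15).

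ADAMTS14, a protease that removes the amino-terminal propeptide of fibrillar procollagens, lies at chr10:70672803-70762441 (+ strand). A549 oncospheres labelled knockout held 3.81 and 4.41 TPM, against 0.06 and 0.02 TPM in wild type, a log2 fold change of 2.29 (SE 0.16). Because the scale adds 1 to TPM, this value depends on it: a pseudocount of 0.1 gave 4.92, and the authors' deposited table gave 6.26 (SE 0.58) at a mean normalized count of 164. In A549 normal culture the gene was at 0.09 and 0.03 TPM in wild type and at 0.28 and 0.16 TPM in libraries labelled knockout. H2023 held 0 to 0.26 TPM in its 8 libraries, and the authors' mean normalized counts were 15.7 in normal culture and 4.66 in oncospheres.

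TIMP2, the inhibitor that also takes part in activating MMP2, lies at chr17:78852977-78925387 (- strand). In A549 normal culture it was at 24.88 and 23.79 TPM in wild type and at 104.63 and 82.35 TPM in libraries labelled knockout, a log2 fold change of 1.89 (SE 0.14). A549 oncospheres gave 19.93 and 19.75 TPM against 87.71 and 61.03 TPM, a log2 fold change of 1.83 (SE 0.19). In H2023 the genotypes overlapped in both cultures: 119.81 and 139.63 against 138.47 and 121.09 TPM in normal culture, and 53.6 and 71.97 against 58.85 and 75.18 TPM in oncospheres. The A549 libraries labelled knockout lay between A549 wild type and H2023 normal culture in TPM. An antisense gene, AC022966.1, lies within TIMP2 and was listed at 8.18 to 58.8 TPM; whether counting used strand is not stated, so reads of the pair may not be fully separate.

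TIMP1, a secreted inhibitor of most matrix metalloproteinases that acts weakly on the membrane types, lies at chrX:47582313-47586789 (+ strand), inside SYN1, which is on the opposite strand and at 1.2 TPM or below. It was at 187.09 and 145.77 TPM in A549 normal wild type and at 293.5 and 204.13 TPM in libraries labelled knockout, a log2 fold change of 0.56 (SE 0.21) that was 0.30 without replicate 1 of the latter. The A549 oncosphere values were 560.61 and 495.01 against 623.42 and 609.46 TPM (log2 fold change 0.23, SE 0.11, and 0.14 without wild-type replicate 2). In H2023 normal culture 147.59 and 157.74 TPM stood against 186.76 and 188.86 TPM (0.30, SE 0.07), and in oncospheres 168.82 and 226.87 TPM stood against 281.49 and 331.6 TPM (0.64, SE 0.19). In each comparison both libraries labelled knockout were above both wild-type libraries. The authors' deposited tables gave 0.64 (SE 0.21) in A549 normal culture and 0.19 (SE 0.14) in A549 oncospheres. For H2023 they gave 0.28 (SE 0.13) in normal culture and 0.53 (SE 0.24) in oncospheres.

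TIMP3, an inhibitor that binds to the matrix and also inhibits several ADAM and ADAMTS proteases, lies at chr22:32801701-32863043 (+ strand), inside SYN3 on the opposite strand. In H2023 normal culture it was at 41.69 and 32.75 TPM in wild type and at 10.77 and 13.92 TPM in libraries labelled knockout, a log2 fold change of -1.52 (SE 0.19). In H2023 oncospheres it held 72.34 and 33.38 TPM in wild type and 43.42 and 36.86 TPM in libraries labelled knockout, and the groups overlapped (log2 fold change -0.29, SE 0.41). That value was 0.25 without wild-type replicate 1 and -0.84 without wild-type replicate 2, so its direction rested on 1 library. In A549 it was listed between 0 and 0.28 TPM, at mean normalized counts of 4.53 and 10.2 in the authors' deposited tables, too low to compare.

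Since these differences chose the genes, no count of them is read against all genes. Over all genes limma, at an adjusted p of 0.05, called 4.54% higher and 6.28% lower in A549 normal culture and 6.04% higher and 7.2% lower in A549 oncospheres. It called 0% higher and 0% lower in both H2023 comparisons, where 3314 and 2828 genes passed an unadjusted p of 0.05. Calls in the authors' deposited tables were 11.2% higher and 10.9% lower in A549 normal culture, 9.29% and 11.4% in A549 oncospheres, 3.84% and 6.97% in H2023 normal culture, and 2.22% and 2.85% in H2023 oncospheres.

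**Figure D2:**
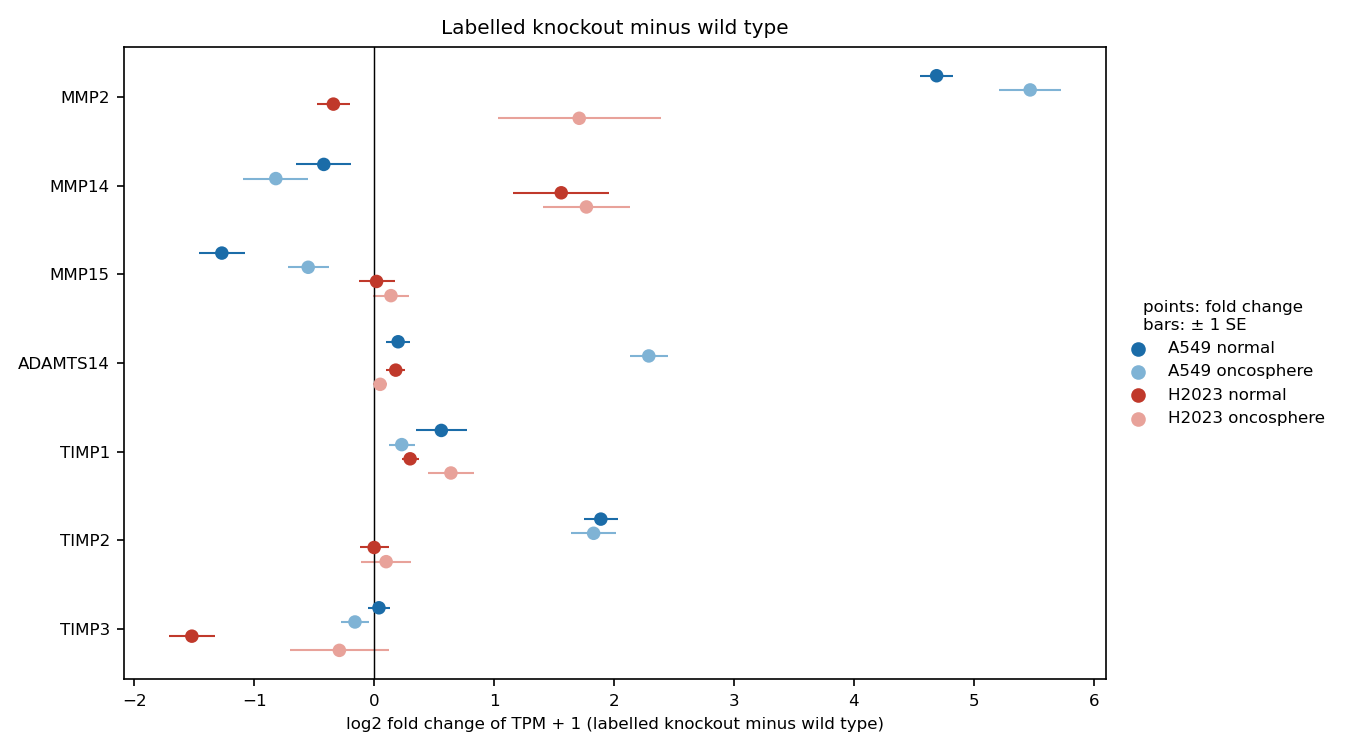
Log2 fold changes of TPM + 1 (labelled knockout minus wild type, 2 against 2 libraries) of the 7 genes in the 4 comparisons; bars are 1 SE of the limma fit and no test is shown. MMP2 reaches 4.69 and 5.47 in A549 against -0.34 and 1.71 in H2023, and MMP14 lies below 0 in A549 and above 0 in H2023.

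As a description of the chosen genes only, the summed TPM of MMP2, MMP14 and MMP15 was divided by that of TIMP1, TIMP2 and TIMP3. In A549 wild type the ratio was 0.11 and 0.12 in normal culture and 0.03 and 0.04 in oncospheres. In A549 labelled knockout it was 0.31 and 0.42 in normal culture and 0.32 and 0.41 in oncospheres. In H2023 normal culture it was 0.32 and 0.25 in wild type and 0.32 and 0.34 in libraries labelled knockout, and in H2023 oncospheres 0.28 and 0.13 against 0.44 and 0.29. TIMP1 made up 96.5% and 96.1% of summed TIMP1, TIMP2 and TIMP3 TPM in A549 wild-type oncospheres and 47.7% to 58.3% in H2023 normal culture. TIMP4, a further inhibitor outside that sum, was at 40.96 and 27.66 TPM in A549 wild-type oncospheres. The ratio counts transcripts and not protein or activity. It also leaves out TIMP4 and every other measured metalloproteinase. In A549 normal culture MMP7 averaged 29.9 TPM in wild type and 2.1 TPM in libraries labelled knockout, MMP24 23.42 and 9.11, and MMP17 12.53 and 14.84. The ratio thus describes the chosen genes and not the balance of the whole system.

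The second question was how the genes differed between oncosphere and normal culture. In wild type, TIMP1 rose in A549 and TIMP2 fell in H2023. MMP2, MMP14, MMP15, ADAMTS14 and TIMP3 passed the test in wild type of neither line. In libraries labelled knockout, TIMP1 stood higher in oncospheres in both lines, MMP2 and ADAMTS14 stood higher in A549, and TIMP3 stood higher and TIMP2 lower in H2023. The fits used the 8 libraries of a line. Because the libraries labelled knockout are those whose levels drew attention to these genes, their culture differences are given with no test. The wild-type libraries also entered the differences that chose the genes, so p-values in wild type are not fully independent of that choice, and counts of called genes are not read against all genes.

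In A549 wild type 1 of 7 genes was called higher and none lower, and of all genes 19% were called higher and 21.6% lower. This was TIMP1, with 187.09 and 145.77 TPM in normal culture and 560.61 and 495.01 TPM in oncospheres, a log2 fold change of 1.67 (SE 0.19, limma adjusted p = 0.000353). Over the alternatives tried it stayed between 1.49 and 1.85, with limma adjusted p-values from 0.000191 to 0.0041. MMP2 gave 0.29 (SE 0.23, limma adjusted p = 0.342) and passed the threshold, at 0.66, when oncosphere wild-type replicate 1 was left out (limma adjusted p = 0.0285). Without oncosphere replicate 2 its direction turned, to -0.07 (limma adjusted p = 0.78), and without normal-culture replicate 2 it was 0.15.

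In A549 labelled knockout TIMP1 was at 293.5 and 204.13 TPM in normal culture and at 623.42 and 609.46 TPM in oncospheres, a log2 fold change of 1.33 (SE 0.19). ADAMTS14 was at 0.28 and 0.16 against 3.81 and 4.41 TPM, a log2 fold change of 2.07 (SE 0.14) that was 3.74 with a pseudocount of 0.1. MMP2 was at 113.36 and 113.67 against 219.76 and 263.48 TPM, a log2 fold change of 1.08 (SE 0.23). The cultures did not overlap for these 3 genes. How many of all genes separate this way with 2 against 2 libraries was not counted, so nothing is read from it. Over all genes 10.9% were called higher and 9.87% lower.

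In H2023 wild type 1 of 7 was called lower and none higher, and of all genes 17.4% were called lower and 3.96% higher. The median gene there was lower by 0.18 on the log2 scale (median log2 fold change -0.18). TIMP2 fell from 119.81 and 139.63 to 53.6 and 71.97 TPM, a log2 fold change of -1.05 (SE 0.18, limma adjusted p = 0.0125). The call was lost when only the 4 libraries compared were fitted (limma adjusted p = 0.0552) and without normal-culture replicate 2 (0.0688). TIMP1 gave 0.36 (SE 0.15, limma adjusted p = 0.149), and passed when libraries were centred on their medians, at 0.60 (limma adjusted p = 0.0476), or without oncosphere replicate 1, at 0.57 (limma adjusted p = 0.0419). Without oncosphere replicate 2 it was 0.15 (limma adjusted p = 0.492). MMP2 gave -0.85 (SE 0.54, limma adjusted p = 0.308) and reached -1.72 (limma adjusted p = 0.0319) without oncosphere replicate 1, the library with 46.1 TPM. Without oncosphere replicate 2 it was 0.01.

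In H2023 labelled knockout TIMP3 was at 10.77 and 13.92 TPM in normal culture and at 43.42 and 36.86 TPM in oncospheres, a log2 fold change of 1.63 (SE 0.35). TIMP1 was at 186.76 and 188.86 against 281.49 and 331.6 TPM (0.70, SE 0.15), and TIMP2 at 138.47 and 121.09 against 58.85 and 75.18 TPM (-0.95, SE 0.18). Over all genes 7.68% were called higher and 19.2% lower. Culture effects were not tested for a difference between lines or genotypes.

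**Figure D3:**
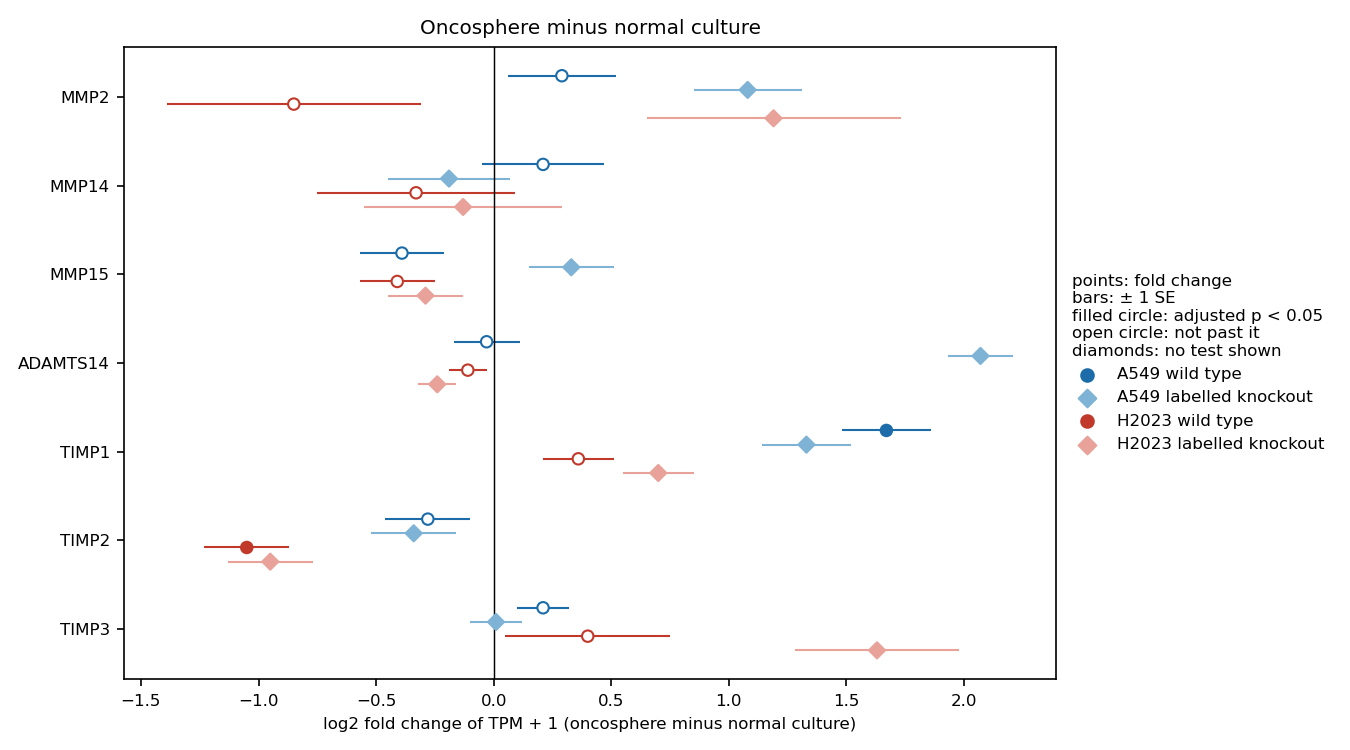
Log2 fold changes of TPM + 1 (oncosphere minus normal culture) in the 4 line and genotype groups; bars are 1 SE, filled circles passed limma's adjusted p of 0.05, open circles did not, and diamonds are libraries labelled knockout, with no test shown. TIMP1 lies above 0 in all 4 groups, from 0.36 to 1.67, and TIMP2 below 0 in all 4.

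The third question was how the lines differ in wild type. H2023 had more MMP2, MMP14, MMP15, TIMP2 and TIMP3 mRNA than A549 in both cultures, and less TIMP1 in oncospheres. These wild-type libraries are one side of the differences that chose the genes, for example MMP2 and TIMP2, low in A549 wild type, so these p-values are not independent of the choice either. In normal culture 5 of 7 were called higher and none lower, and of all genes 22.8% were called higher and 12.6% lower. In oncospheres 5 were called higher and 1 lower, and of all genes 20.3% and 22%. Nothing is read from the members' counts beside these shares. ADAMTS14 was near 0 in both lines and passed in neither.

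TIMP3 showed the largest line difference of the 7, with log2 fold changes of 5.20 in normal culture (SE 0.34, limma adjusted p = 9.92e-05) and 5.39 in oncospheres (SE 0.34, limma adjusted p = 7.75e-05). The normal-culture value was 8.15 with a pseudocount of 0.1, since A549 was near 0 TPM. TIMP2 differed by 2.36 (SE 0.15, limma adjusted p = 9.92e-05) and 1.60 (SE 0.15, limma adjusted p = 0.000324). MMP2 differed by 3.40 (SE 0.5, limma adjusted p = 0.00213) and 2.25 (SE 0.5, limma adjusted p = 0.00968), and the oncosphere value was 1.39 without H2023 replicate 1 and was no longer called without A549 replicate 1 (1.88, limma adjusted p = 0.0702). MMP15 differed by 0.85 (SE 0.16, limma adjusted p = 0.00508) and 0.83 (SE 0.16, limma adjusted p = 0.00469). MMP14 differed by 2.02 (SE 0.44, limma adjusted p = 0.011) and 1.47 (SE 0.44, limma adjusted p = 0.0311). The MMP14 call was lost in normal culture without A549 replicate 1 (limma adjusted p = 0.0692) or H2023 replicate 1 (0.0619), and in oncospheres without A549 replicate 1 (0.0564), A549 replicate 2 (0.165) or H2023 replicate 1 (0.161). TIMP1 did not pass in normal culture (-0.11, SE 0.17, limma adjusted p = 0.649) and was lower in H2023 oncospheres by a log2 fold change of -1.42 (SE 0.17, limma adjusted p = 0.000792).

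**Figure D4:**
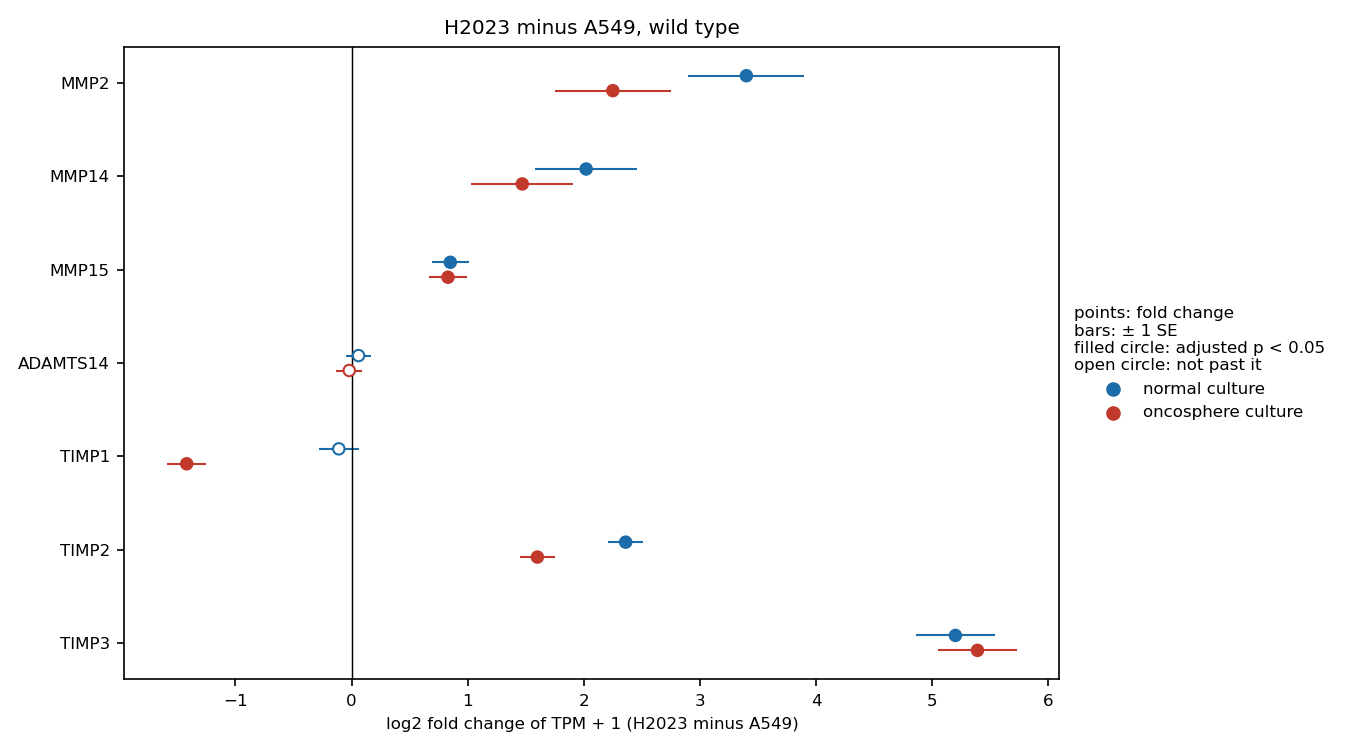
Log2 fold changes of TPM + 1 (H2023 minus A549, wild type) in both cultures; bars are 1 SE, and filled points passed limma's adjusted p of 0.05. TIMP3 stands at 5.20 and 5.39, and TIMP1 is the gene called lower in H2023, in oncospheres at -1.42.

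The surrounding system was described by 62 further genes, of which 43 had values: 11 other matrix metalloproteinases, 11 other ADAMTS proteases, 8 ADAM proteases, 7 genes of activation, inhibition and clearance, and 6 matrix substrates. The lists were drawn up with earlier results of these data known, so counts and p-values of the 43 are no independent test. In A549 normal culture limma called 8 of the 43 higher and 6 lower in libraries labelled knockout, and of all genes 4.54% and 6.28%. The median log2 fold change of the 43 was 0.31. ADAM19, a membrane-bound ADAM protease, rose from a mean of 1.31 to 12.21 TPM (2.47, SE 0.3, limma adjusted p = 0.0148). LRP1, a receptor that clears proteases and their complexes, rose by 2.04 (SE 0.22, limma adjusted p = 0.0123), and ADAM12 by 1.18 (SE 0.23, limma adjusted p = 0.0387). MMP7, the small metalloproteinase matrilysin, fell from 28.29 and 31.52 to 2.81 and 1.39 TPM (-3.35, SE 0.26, limma adjusted p = 0.00678). ADAMTS9 fell by 2.45 and the proprotein convertase PCSK6 by 1.68 on the log2 scale (limma adjusted p = 0.0102 and 0.0112).

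In A549 oncospheres 7 of the 43 were called higher and 5 lower, with a median of 0.04, and of all genes 6.04% and 7.2%. ADAM19 (2.31, limma adjusted p = 0.00682), ADAMTS12 (2.03, limma adjusted p = 0.00511) and COL4A1, a chain of the type IV collagen that MMP2 cuts (1.76, limma adjusted p = 0.00466), rose most. COL4A1 had 9.28 TPM in wild type and 33.81 TPM in libraries labelled knockout (means of 2). MMP28 fell from 7.53 to 0.66 TPM (-2.35, limma adjusted p = 0.0042) and ADAM28 fell by 1.67 (limma adjusted p = 0.0222). LRP1, which rose in normal culture, fell in oncospheres (-0.90, SE 0.18, limma adjusted p = 0.0321). LRP1 was singled out here after its values were seen, so that p-value is no independent test. None of the 43 was called in either A549 comparison once any 1 of the 4 libraries was left out. In H2023 limma called 0 of the 43 in each culture, where it called 0% of all genes as well. At an unadjusted p under 0.05 there were 13 of the 43 in each, and 18.2% and 15.5% of all genes. The authors' deposited tables called 4 higher and 8 lower of 39 in normal culture, and of all genes 3.84% and 6.97%. In oncospheres those tables called 6 higher and 5 lower of 38, and of all genes 2.22% and 2.85%.

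Between cultures, A549 wild type had 14 of the 43 higher and 6 lower in oncospheres, and of all genes 19% and 21.6%. The group of activation, inhibition and clearance had 5 of 7 higher. It had 4 higher in A549 labelled knockout, 0 in H2023 wild type and 2 in H2023 labelled knockout. This group was singled out after its counts were seen. Fibronectin, FN1, rose from a mean of 71.11 to 438.12 TPM (2.61, limma adjusted p = 6.88e-05), LRP1 by 2.44 (limma adjusted p = 0.000114) and MMP28 by 2.79 (limma adjusted p = 4.35e-05). COL4A1 fell by 1.53 and MMP24 by 1.41 on the log2 scale (limma adjusted p = 0.00014 and 0.000746). A549 labelled knockout had 10 higher and 3 lower, and of all genes 10.9% and 9.87%. PCSK6 rose by 3.10 (limma adjusted p = 7.75e-05), MMP7 by 2.89 (0.000259) and FN1 by 2.87 (0.000189), while COL4A1 (-0.93) and COL4A2 (-0.76) were among the 3 that fell. Without oncosphere replicate 1 labelled knockout, 8 were called in place of 13.

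H2023 wild type had 1 higher and 9 lower of the 43 in oncospheres, and of all genes 3.96% and 17.4%. The gene that rose was MMP17, a membrane-type metalloproteinase (1.28, limma adjusted p = 0.0367). ADAM12 (-2.06), COL4A2 (-1.96) and MMP24 (-1.82) fell most, with limma adjusted p-values of 0.00193, 0.021 and 0.00636. In place of these 10 calls, the fit without normal-culture replicate 1 made 4, without oncosphere replicate 1 it made 6, and without oncosphere replicate 2 it made 3. H2023 labelled knockout had 9 higher and 10 lower, and of all genes 7.68% and 19.2%. Leaving out normal-culture replicate 1 or 2 or oncosphere replicate 1 or 2 gave 5, 8, 10 and 12 calls in place of 19. FN1 rose by 3.13 (limma adjusted p = 0.00375), MMP7 by 1.60 (0.00666) and MMP17 by 1.39 (0.0241), and ADAM12 (-2.37), MMP24 (-2.01) and COL4A2 (-1.51) fell most. MMP17 was higher in oncospheres in all 4 line and genotype groups, by 0.85, 1.12, 1.28 and 1.39. Each passed limma's threshold (adjusted p = 0.0132, 0.00789, 0.0367 and 0.0241). This pattern was singled out after its values were seen, so the p-values are no independent test of it.

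Between wild-type lines, H2023 had 14 of the 43 higher and 3 lower in normal culture (11 in all without H2023 replicate 2) and 9 higher and 12 lower in oncospheres. Of all genes 22.8% were called higher and 12.6% lower in normal culture, and 20.3% and 22% in oncospheres. In normal culture MMP28 (3.20), LRP1 (2.12) and MMP25 (1.99) were highest over A549, and versican, VCAN (-2.63), and the MMP inducer BSG (-0.39) were lower. In oncospheres MMP25 (1.64), MMP11 (1.23) and ADAMTS3 (1.08) were higher, and VCAN (-5.06), TIMP4, the fourth of the inhibitors (-3.16), and ADAM12 (-2.57) were lower. Each of these passed limma's adjusted threshold, with the weakest at 0.0341 for BSG.

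**Figure D5:**
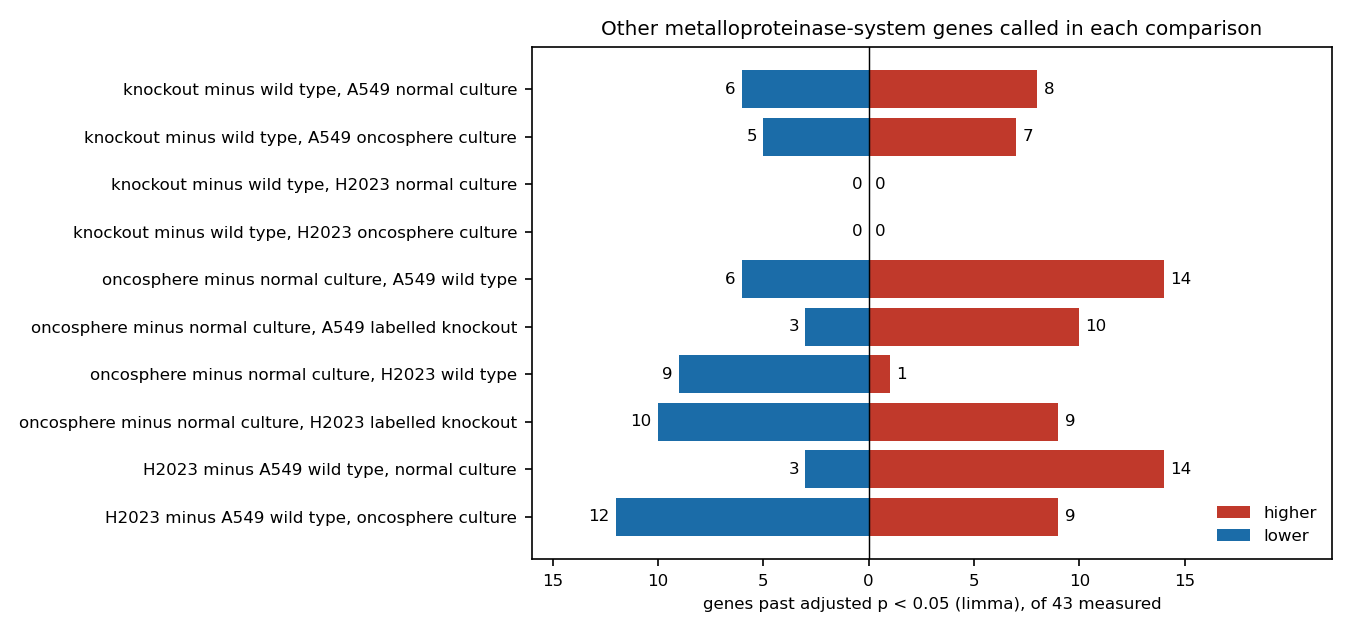
Number of the 43 other genes of the system past limma's adjusted p of 0.05 in each of the 10 comparisons, higher to the right and lower to the left of 0. Counts run from 0 in both H2023 knockout comparisons to 14 higher in A549 wild-type oncospheres and in the line comparison in normal culture. In both H2023 knockout comparisons limma called 0% of all genes.

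The genes whose log2(TPM + 1) followed each member most closely over the 16 libraries were ranked among 14022 genes by Pearson's r. The libraries share 8 groups, so r is a description. MMP2 was followed by RNF24 (0.951), LPCAT2 (0.937) and SERTAD3 (0.894). LPCAT2 starts 2307 bases beyond the end of MMP2, at chr16:55508998-55586670, and was at 4.31 and 4.7 TPM in A549 normal wild type against 23.79 and 22.65 TPM in libraries labelled knockout. In A549 oncospheres it held 3.84 and 6.32 against 30.86 and 32.06 TPM. MMP14 was followed by DAZAP2 (0.987), ZNF263 (0.975) and NECTIN3-AS1 (0.973), and MMP15 by INA (0.98), ARHGAP29 (0.974) and ZNF569 (0.969). ADAMTS14 was followed by GOLGA7B (0.961), WNT6 (0.951) and SFRP5 (0.95), all highest in the 2 A549 oncosphere libraries labelled knockout, so these r values restate that 1 group was high. TIMP1 was followed by DHRS7 (0.956), TRIM38 (0.949) and LGMN (0.932), TIMP2 by NPC1, PPP1R12C (both 0.946) and FHL3 (0.938), and TIMP3 by NALF1 (0.995), CES1 (0.991) and PCAT7 (0.982).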

How the data were processed

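RNA was sequenced from 16 libraries in 8 groups of 2. The authors deposited 4 tables, 1 per line and culture, with TPM per library and, per the file headers, a mean normalized count (a signal over 4 libraries), a log2 fold change, its standard error and a statistic (scores) and p-values with adjusted p-values. HISAT2, StringTie and GRCh38 are named in the submitters' processing notes, per the labels. Repeated identifiers (119) were reduced to their first row, leaving 18227 genes. TPM keeps no depth, so no floor on a 0 is given. Main tests were fitted to log2(TPM + 1) in limma 3.58.1 under R 4.3.3, allowing the variance to trend with the mean, two-sided, Benjamini-Hochberg adjusted over all genes, threshold 0.05: 4 libraries for genotype, 8 of a line for culture, and 8 wild-type libraries for lines. The fit was checked on simulated data. Members and lists were chosen with earlier results of these data known. Every member with a row was named; of the other lists, the 3 called genes that rose and the 3 that fell most per comparison; and the 3 genes most alike to each member with a mean of at least 1 TPM. 1 gene that this rule names is not reported here. LRP1 in A549 oncospheres and MMP17 across the 4 culture comparisons were singled out after their values were seen. So was the group of activation, inhibition and clearance between cultures. Alternatives were a pseudocount of 0.1, a filter at 1 TPM, no mitochondrial genes, median centring, other sets of libraries, a replicate block, leaving out libraries, and the authors' tables. Gene positions are from GENCODE on GRCh38 and promoters from RefSeq.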

Additional observations from a re-analysis of the deposited data

Results flagged for a closer look

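For 2 genes both libraries labelled knockout moved one way from wild type in 1 line or culture and the opposite way in another. How many of all genes do so was not counted, so the pattern is not read as particular to these 2. The log2 fold change of MMP2 was 4.69 in A549 normal culture and -0.34 in H2023 normal culture, and within H2023 it had -0.34 in normal culture and 1.71 in oncospheres. MMP14 had -0.42 in A549 and 1.56 in H2023 normal culture, and -0.82 in A549 and 1.77 in H2023 oncospheres. The value of -0.42 had an SE of 0.23, and the authors' deposited table gave -0.05 (SE 0.43) there. The direction of MMP14 in A549 normal culture is therefore uncertain. These differences between lines and cultures were not tested, because the knockout values chose the genes.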

How the results depend on the processing

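For the 7 genes, 414 alternative values were computed in the culture and line comparisons: 389 stayed on their side of the threshold, 21 lost a call, 4 gained one, and none of the called values changed sign. That tally takes in the culture comparisons of libraries labelled knockout, whose calls are not independent of the choice of genes. It is therefore no measure of how stable the wild-type calls are. In the knockout comparisons 256 of 303 moved by less than the spread. The wild-type culture comparisons called 1 member each. These counts were not stable when 1 library at a time was left out, which leaves 1 library in a group. For H2023 wild-type culture, centring gave 2 and fitting only the 4 libraries gave 0. Counts of the 43 other genes went from 14 and 12 to 0 in the A549 knockout comparisons, where 1 residual degree of freedom remained, from 13 to 8 to 9 in A549 labelled-knockout culture, from 10 to 3 to 7 and from 19 to 5 to 12 in the H2023 wild-type and labelled-knockout cultures, and from 17 to 11 to 15 between lines in normal culture. H2023 wild-type culture gave 6 without mitochondrial genes and 2 with only the 4 libraries. In H2023 normal-culture knockout, 0 calls became 4 with a mean of at least 1 TPM, 3 when centred, 1 with all 8 libraries and 12 in the authors' deposited table; in oncospheres 0 became 3 with all 8 libraries and 11 in the authors' table. The causes were not tested.

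The labels give groups the same replicate numbers. No label says that a number marks a shared batch, so the libraries were not treated as paired. For each gene with a mean of at least 1 TPM, replicate 1 minus replicate 2 was taken in both groups of a comparison. These differences correlated between the groups at -0.0224 to 0.476, over 14090 to 14773 genes. The highest value, over 14369 genes, was in the H2023 oncosphere knockout comparison, where same-numbered libraries deviated partly alike. With the replicate block the MMP2 value in that comparison kept its size, 1.71, with an SE of 0.27 in place of 0.68. With a replicate block the member counts stayed at 1 and 1 in the wild-type culture comparisons and at 5 and 6 in the line comparisons. Counts of the 43 other genes with the replicate block were 14, 13, 0 and 0 in the knockout, 20, 15, 11 and 23 in the culture and 20 and 20 in the line comparisons. With 2 libraries a group, unknown depth and 1 clone per line, small differences could not be resolved, and values of TIMP3 in A549 and of ADAMTS14 outside A549 oncospheres labelled knockout are too low to compare.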
